A study of Homo sapiens with 4 samples.

Results

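The messages of 10 genes that encode poly(A)-binding proteins and their partners were followed in G401 cells after loss of BRD9. The members were taken by gene symbol, and each matched 1 of the 57820 gene models in the files. They comprise 4 cytoplasmic poly(A)-binding proteins (PABPC1, PABPC3, PABPC4 and PABPC1L), the nuclear poly(A)-binding protein PABPN1, 3 PABP-interacting proteins (PAIP1, PAIP2 and PAIP2B) and 2 La-related proteins (LARP1 and LARP4). The members were chosen by gene family with earlier results of this same contrast in view, that is, the CPM values and fold change of PABPC1, which was lower in BRD9 KO. The values below therefore describe these libraries. The adjusted p-values come from the fit over all genes and are not independent evidence about the group.

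G401 is an established line from a rhabdoid tumor of the kidney that lacks SMARCB1, a subunit of the SWI/SNF chromatin remodeling complex. BRD9 is a bromodomain subunit of a SWI/SNF form without SMARCB1, and the study asked what its loss does to gene expression in such cells. RNA-seq was performed on 2 libraries of G401 cells given a guide against BRD9 (BRD9 KO) and 2 libraries given a guide against LacZ, a bacterial gene absent from human cells (LacZ control). By the study's methods, cells of both groups carried Cas9 under blasticidin selection and a lentiviral guide under puromycin selection, so that the SMARCB1 loss, the nuclease and both antibiotics were shared by cases and controls. Whether the cells were a pool or a clone, and the day of harvest, are stated neither in the labels nor in the methods. The paper does report that no clone lacking BRD9 could be recovered from G401. The methods call the replicates biological, but no label ties them to separate cultures, so the p-values reflect how far these 4 libraries spread and that spread may be purely technical.

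The libraries held 15053247 to 19559290 estimated counts, with 22985 to 23790 genes above 0 and 8.15% to 8.48% of counts on mitochondrial genes. BRD9 itself was measured at 29.4 and 26.8 CPM (counts scaled to the library's total after TMM adjustment) in the BRD9 KO libraries against 48.2 and 53.8 in the LacZ control libraries. A frame-shifting edit need not remove the message, so this level does not measure the protein, and BRD9 overlaps ZDHHC11 on the same strand in the annotation. SMARCB1 had 0 counts in all 4 libraries and VIM, a mesenchymal marker of rhabdoid cells, lay between 1269 and 1797 CPM. The blood, endothelial and gut markers PTPRC, CD3E, CDH5, KRT20 and CDX2 were at 0 in all 4 libraries, and the heart and liver markers MYH6 and ALB reached at most 1 count.

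Poly(A)-binding proteins coat the tail of a message. In the cytoplasm PABPC1 bridges the tail to the cap through the scaffold EIF4G1, which favors translation, and it also brings deadenylases and release factors to the message. PAIP1 stimulates this activity, PAIP2 and PAIP2B displace the protein from the tail, LARP4 binds the tail and PABPC1 and protects messages, and LARP1 holds messages that begin with a 5′ terminal oligopyrimidine (TOP) tract, a class to which PABPC1 belongs. In the nucleus PABPN1 drives tail elongation by poly(A) polymerase.

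The 150 bases before a RefSeq start (GRCh38.p14) are shown for PABPN1, PAIP2B, LARP1 and LARP4, the members other than PABPC1 that passed the test in one direction or the other, so that their proximal promoters can be read beside the values. Capitals mark CCAAT, bound by NF-Y, and GGGCGG, the GC box bound by SP factors, on either strand.
PABPN1 (chr14:23321307-23321456, plus strand): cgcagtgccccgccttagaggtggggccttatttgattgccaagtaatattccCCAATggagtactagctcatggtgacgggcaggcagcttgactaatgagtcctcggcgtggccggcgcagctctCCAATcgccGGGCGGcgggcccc
PAIP2B (chr2:71227104-71227253, minus strand): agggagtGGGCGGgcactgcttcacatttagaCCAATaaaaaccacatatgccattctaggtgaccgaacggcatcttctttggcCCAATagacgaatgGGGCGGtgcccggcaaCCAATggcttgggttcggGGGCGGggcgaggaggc
LARP1 (chr5:154682829-154682978, plus strand): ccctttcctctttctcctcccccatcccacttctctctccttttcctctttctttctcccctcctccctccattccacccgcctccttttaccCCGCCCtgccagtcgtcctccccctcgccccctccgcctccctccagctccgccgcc
LARP4 (chr12:50400735-50400884, plus strand): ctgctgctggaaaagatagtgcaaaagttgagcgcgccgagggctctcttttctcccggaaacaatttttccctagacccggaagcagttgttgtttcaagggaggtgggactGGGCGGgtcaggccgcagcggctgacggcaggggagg
The PAIP2B window held 3 CCAAT and 3 GGGCGG matches and the PABPN1 window 2 and 1, whereas the LARP1 and LARP4 windows each held 1 GGGCGG and no CCAAT. These are 1 of 1 start for PAIP2B, 1 of 2 for PABPN1, 1 of 4 for LARP1 and 1 of 3 for LARP4. Other starts of LARP1 and LARP4 did hold CCAAT. Of the 10 members, 7 had an entry that could be used, with 15 starts in all. In windows of 250 bases before and 50 after the start, GGGCGG lay at 12 of these starts and CCAAT at 6, against 45.0% and 34.6% of 35116 promoters of the same length. The E-box CACGTG lay at 1 start and TATAAA at 0, against 7.26% and 11.5% of all promoters. Several starts belong to the same gene and are not independent, so nothing is read from these counts against the shares. A match is a description of letters and not a measured binding site.

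BRD9 KO libraries were compared with LacZ control libraries to see how each member moved. Of the 10 members, all of which passed the filter on low counts, LARP1 and LARP4 were higher, PABPC1, PABPN1 and PAIP2B were lower, and 5 did not pass the test (adjusted p under 0.05, edgeR's quasi-likelihood test over 15288 genes). Over all 15288 genes tested, 38.6% passed, 20.5% higher and 18.1% lower, and nothing is read from the members' count against that share. The members' count includes PABPC1, whose lower level was known when the members were chosen. The members' median log2 fold change was -0.082, against -0.0061 over all genes tested. All changes but that of PAIP2B were smaller than 1.5-fold. CPM values of the groups did not overlap for 8 members, beside 68.6% of all genes tested. In bulk RNA such as this, fewer cells that express a gene and less RNA per cell cannot be told apart, and CPM values are shares of each library.

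**Figure D1:**
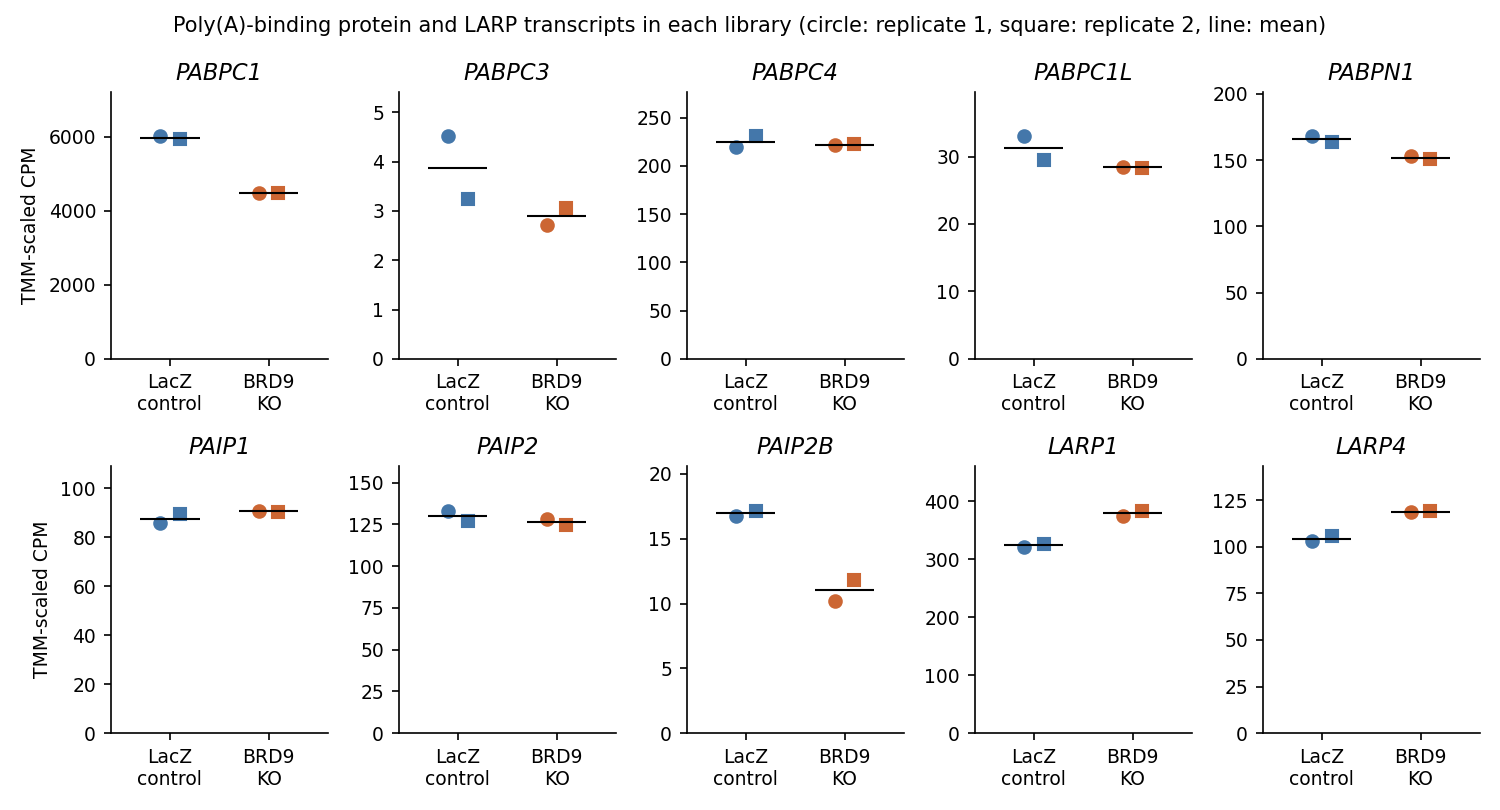
CPM scaled by the trimmed mean of M values (TMM), from 0, for each of the 10 members in the 2 LacZ control and 2 BRD9 KO libraries, with points for libraries and a line for each group's mean. PABPC1, PABPN1 and PAIP2B lay lower and LARP1 and LARP4 higher in both BRD9 KO libraries, while the PABPC4 and PAIP2 points overlapped between groups.

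PABPC1 (ENSG00000070756.9), the main cytoplasmic poly(A)-binding protein, lies on the minus strand of chromosome 8 at 101698044 to 101735037. Gene positions here and below are those of the GENCODE annotation mapped to GRCh37. It was measured at 4470 and 4479 CPM in BRD9 KO libraries and at 6002 and 5935 CPM in LacZ control libraries. Both BRD9 KO libraries lay below both controls, and the gap was far larger than the spread within either group. PABPC1 took 0.446% of all counts in each BRD9 KO library against 0.601% and 0.593% in controls, which is 74.7% of the control share. The log2 fold change was -0.42 (SE 0.0067). As this lower level was known when the members were chosen, it is given as a description without a p-value.

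PABPC1 was the 2nd most abundant of 61 nuclear genes with at least 1000 CPM on average. Among these 61 genes its log2 fold change was the 3rd lowest, after VIM at -0.49 and HNRNPA1 at -0.42. That rank rests on a value known when the members were chosen and is a description only. Of the 61 genes 91.8% passed the test and 57.4% were lower. The position of PABPC1 among all genes tested is shown in the plot of fold change against mean CPM.

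**Figure D2:**
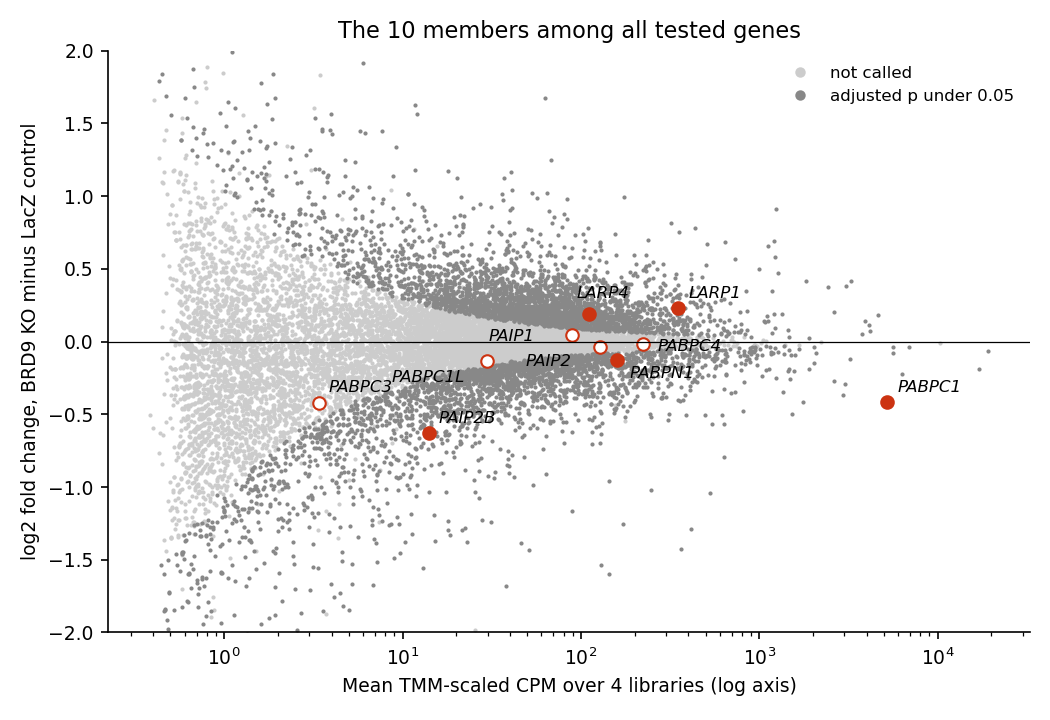
Log2 fold change (BRD9 KO minus LacZ control) against mean CPM on a log axis for the genes tested, with members as filled red circles where adjusted p was under 0.05 and as open red circles otherwise. PABPC1 stands at the right at -0.42, LARP1 lies above 0 at 0.23, and 63 genes beyond 2 on the log2 scale fall outside the plot.

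PABPC4, a second cytoplasmic poly(A)-binding protein first described in activated T cells, lies on the minus strand of chromosome 1 at 40026381 to 40042462. It was measured at 222 and 223 CPM in BRD9 KO libraries and at 220 and 231 CPM in LacZ control libraries. The groups overlapped, and the log2 fold change was -0.020 (SE 0.026, adjusted p = 0.587). Without LacZ control replicate 2 the sign turned, to 0.019, and the adjusted p-value was 0.685, within a range of 0.214 to 0.975 over all settings.

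PABPC1L, a PABPC1-like protein known for its part in oocyte maturation, lies on the plus strand of chromosome 20 at 43538701 to 43587676. Its levels were 28.5 and 28.4 CPM after BRD9 loss and 33.0 and 29.5 CPM in controls. Both BRD9 KO libraries were below both controls, but LacZ control replicate 2 was only slightly above them. The log2 fold change of -0.13 (SE 0.068) did not pass the test (adjusted p = 0.138). It moved to -0.049 without LacZ control replicate 1 and to -0.21 without LacZ control replicate 2.

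PABPC3 is an intronless, testis-expressed copy on the plus strand of chromosome 13 at 25670274 to 25673392. It was at 2.72 and 3.06 CPM in BRD9 KO libraries and at 4.51 and 3.24 CPM in LacZ control libraries, from 50 to 68 rounded counts per library. Both BRD9 KO libraries lay below both controls, with LacZ control replicate 2 close to them. The log2 fold change was -0.42 (SE 0.222, adjusted p = 0.147), the same size as that of PABPC1 but measured with far larger error. PABPC3 counts were 0.0613% and 0.0687% of PABPC1 counts in BRD9 KO libraries and 0.0749% and 0.0547% in controls, and these ranges overlapped. Because PABPC3 is nearly identical to PABPC1, reads of the far more abundant gene could be assigned to it, and its level is uncertain. The deposited posterior standard deviation of PABPC3 was 2.67% to 3.55% of its count. How much of the PABPC3 level came from PABPC1 reads was not tested.

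The other members of the gene family were at or near the detection limit. PABPC5, PABPC4L, PABPC1L2A and PABPC1L2B had 0 counts in every library and PABPN1L had 1 count in 1 library. A count of 0 allows up to 3 counts, or 0.154 to 0.199 CPM depending on the library, for counting error only. None of these 5 genes entered the test.

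PABPN1, which binds the growing tail in the nucleus, lies on the plus strand of chromosome 14 at 23790666 to 23795372. It was at 153 and 151 CPM in BRD9 KO libraries and at 168 and 164 CPM in LacZ control libraries. The groups did not overlap, and PABPN1 fell by 0.12 on the log2 scale (SE 0.028, adjusted p = 0.00136). With limma on log2(TPM + 1) (TPM being the deposited level per transcript length) it did not pass, at -0.065 and adjusted p = 0.219 within a range of 0.0002 to 0.219 over all settings.

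The 3′ part of PABPN1 shares its exons with BCL2L2-PABPN1, a readthrough message that starts in the upstream apoptosis regulator BCL2L2. Counts of BCL2L2-PABPN1 were 183 and 68.4 in BRD9 KO libraries and 131 and 112 in controls, so that the highest and the lowest value were both in the BRD9 KO group. The deposited posterior standard deviation of BCL2L2-PABPN1 was 18.4% to 37.5% of its count. The split of its reads with the genes it overlaps, BCL2L2 and PABPN1, was thus poorly determined. For PABPN1 itself the posterior standard deviation was 0.739% to 0.935% of the count. The log2 fold change of BCL2L2-PABPN1 was -0.15 (adjusted p = 0.872). Without BRD9 KO replicate 1 BCL2L2-PABPN1 was lower, at -0.88 and adjusted p = 8.64e-04, and without BRD9 KO replicate 2 the sign turned to 0.30, with adjusted p between 8.64e-04 and 0.977 over all settings. When the counts of PABPN1 and BCL2L2-PABPN1 were summed before the fit, the sum was lower by -0.13 on the log2 scale (adjusted p = 0.00236). The average transcript length of PABPN1, weighted by isoform, was 1574 and 1586 bases in BRD9 KO libraries against 1655 and 1613 in controls, and did not overlap. That holds for 37.5% of the 12632 tested genes whose length varied.

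Among the PABP-interacting proteins, PAIP2B was lower in BRD9 KO libraries and PAIP1 and PAIP2 did not pass the test. PAIP2B is a paralog of PAIP2 that likewise inhibits translation by taking PABPC1 off the tail, and lies on the minus strand of chromosome 2 at 71409868 to 71454233. It was at 10.2 and 11.8 CPM in BRD9 KO libraries and at 16.8 and 17.2 CPM in LacZ control libraries. The groups were well apart, and PAIP2B fell by 0.63 on the log2 scale (SE 0.10, adjusted p = 4.59e-05). It was the member with the largest log2 change in size and rested on 193 to 286 counts per library. With limma on log2(TPM + 1) the value was -0.48 and did not pass (adjusted p = 0.0844, range 4.50e-08 to 0.0844 over all settings). The added 1 shrinks changes at low TPM, but why the call was lost was not tested.

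PAIP2, the more abundant inhibitor, lies on the plus strand of chromosome 5 at 138677276 to 138705409. It was at 128 and 125 CPM in BRD9 KO libraries and at 133 and 127 CPM in controls, and the groups overlapped. The log2 fold change was -0.039 (SE 0.032, adjusted p = 0.372), and it ran from -0.00024 without LacZ control replicate 1 to -0.073 without LacZ control replicate 2, with -0.017 without BRD9 KO replicate 2. The library did not mark strand, and PAIP2 overlaps the opposite-strand gene CTB-43P18.1, whose reads could not be told apart there. PAIP2B made up 1.73% and 2.06% of the summed PAIP2 and PAIP2B level per length (TPM) in BRD9 KO libraries and 2.70% and 2.89% in controls, a small share in both groups.

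PAIP1, which stimulates translation by binding PABPC1 and the helicase EIF4A, lies on the minus strand of chromosome 5 at 43526369 to 43557860. Its CPM values were 90.7 and 90.1 with the BRD9 guide and 85.6 and 89.3 with the LacZ guide. The groups did not overlap, but the log2 fold change of 0.047 (SE 0.037) did not pass the test (adjusted p = 0.330), and was 0.023 without LacZ control replicate 1 and 0.081 without LacZ control replicate 2. The ratio of PAIP2 plus PAIP2B to PAIP1 in TPM was 2.006 and 1.871 in BRD9 KO libraries and 2.115 and 2.004 in controls, which overlapped.

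Both LARP members were higher in BRD9 KO libraries. LARP1, the repressor and stabilizer of TOP messages, lies on the plus strand of chromosome 5 at 154062546 to 154197165. It was at 376 and 384 CPM in BRD9 KO libraries and at 321 and 326 CPM in LacZ control libraries. The groups did not overlap, and LARP1 rose by 0.23 on the log2 scale (SE 0.019, adjusted p = 1.13e-08). The log2 fold change stayed between 0.22 and 0.30 and passed the test in all 13 alternatives.

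LARP4, which binds poly(A) and PABPC1, lies on the plus strand of chromosome 12 at 50786166 to 50873787. It was at 118 and 119 CPM in BRD9 KO libraries and at 103 and 106 CPM in controls. The groups did not overlap, and LARP4 rose by 0.19 on the log2 scale (SE 0.032, adjusted p = 1.08e-04). With limma on log2(TPM + 1) the value was 0.18 and did not pass (adjusted p = 0.106, range 2.17e-07 to 0.106 over all settings).

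Levels per length were compared as TPM, which divides counts by transcript length. In LacZ control libraries PABPC1 was at 6957 and 6871 TPM, PABPC4 at 198 in both and PABPN1 at 175 in both. PAIP2 followed at 161 and 153, LARP1 at 99.4 and 98.2, and PAIP1 at 78.4 and 78.6 TPM. LARP4 at 35.5 and 33.5 and PABPC1L at 34.4 and 33.1 TPM were the only neighbors whose control ranges overlapped. PAIP2B at 4.47 and 4.55 and PABPC3 at 2.46 and 1.77 TPM came last. The order of the 10 group means was the same in BRD9 KO libraries, where PABPC1 was at 5194 and 5233 TPM.

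**Figure D3:**
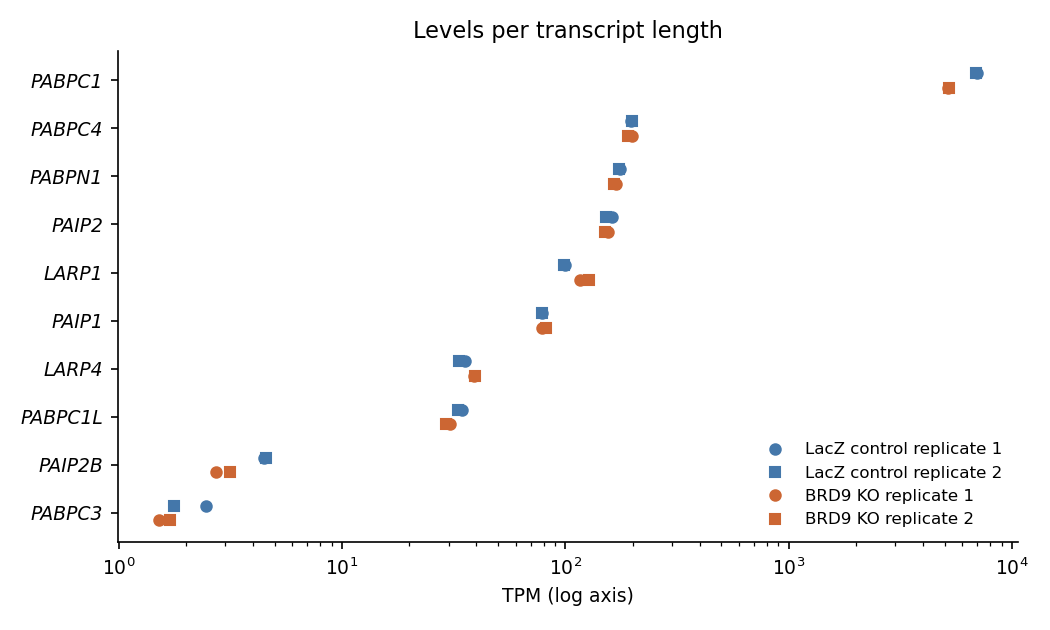
TPM of the 10 members on a log axis, ordered by the mean of the LacZ control libraries, with 1 point per library. PABPC1 exceeds PABPC4 by 26.0 to 35.2 times in every library, and the LARP4 and PABPC1L points are neighbors at about the same level in controls.

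The levels per length were also set against each other within each library. The 4 cytoplasmic poly(A)-binding proteins summed to 5426 and 5454 TPM in BRD9 KO libraries and to 7192 and 7104 TPM in LacZ control libraries, so that the sum stood at 76.1% of the control level. PABPC1 made up 95.7% and 95.9% of that sum in BRD9 KO libraries and 96.7% in each control. The sum thus followed PABPC1, and PABPC4 added too little to change it.

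The ratio of PABPC1 to PABPC4 in TPM was 26.0 and 27.5 in BRD9 KO libraries and 35.2 and 34.6 in LacZ control libraries. The ratio of PABPC1 to LARP1 was 44.8 and 40.9 against 70.0 and 69.9, and that of PABPC1 to LARP4 was 133 and 132 against 196 and 205. The ratio of PABPC1 to PAIP2 plus PAIP2B was 32.9 and 34.2 against 42.0 and 43.6. Each of these ratios was lower in both BRD9 KO libraries than in both controls. They all hold PABPC1, whose lower level was known beforehand, so they are not separate results, and they are ratios of messages and not of proteins.

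Reads that PABPC1 could share with its pseudogenes took little of its signal. Of 13 rows named as PABPC1 pseudogenes, 8 had any count and 5 were at 0 in all libraries. No single PABPC1 pseudogene held more than 0.0156% of the PABPC1 count. With these rows and PABPC3 added to PABPC1 before the fit, the log2 fold change was again -0.42. The weighted transcript length of PABPC1 was 1503 and 1493 bases in BRD9 KO libraries and 1498 and 1495 in controls, and overlapped. Besides PABPN1, only PAIP2 had lengths that did not overlap, at 1441 and 1452 bases against 1437 in each control. The PAIP2B and PABPC3 lengths did not vary. Lengths did not overlap for 37.5% of the 12632 tested genes whose length varied.

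The wider machinery of the poly(A) tail was read from 8 lists of 110 genes, written without looking at those genes' values but with earlier results of the series known. Of 102 genes tested, 20 were higher, 28 were lower and 54 did not pass, which is 47.1% passing beside the 38.6% of all genes. With limma on log2(TPM + 1) 13 were higher and 9 lower, beside 8.77% higher and 7.21% lower over all genes. With DESeq2 11 were higher and 20 lower, beside 15.5% and 10.4% of its genes. In the main fit 20.5% of all genes were higher and 18.1% lower. The counts per list below stand beside these shares, and nothing is read from them. The median log2 fold change of the lists together was 0.0050. The genes named from each list are the 3 with the smallest p-values among those that passed.

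**Figure D4:**
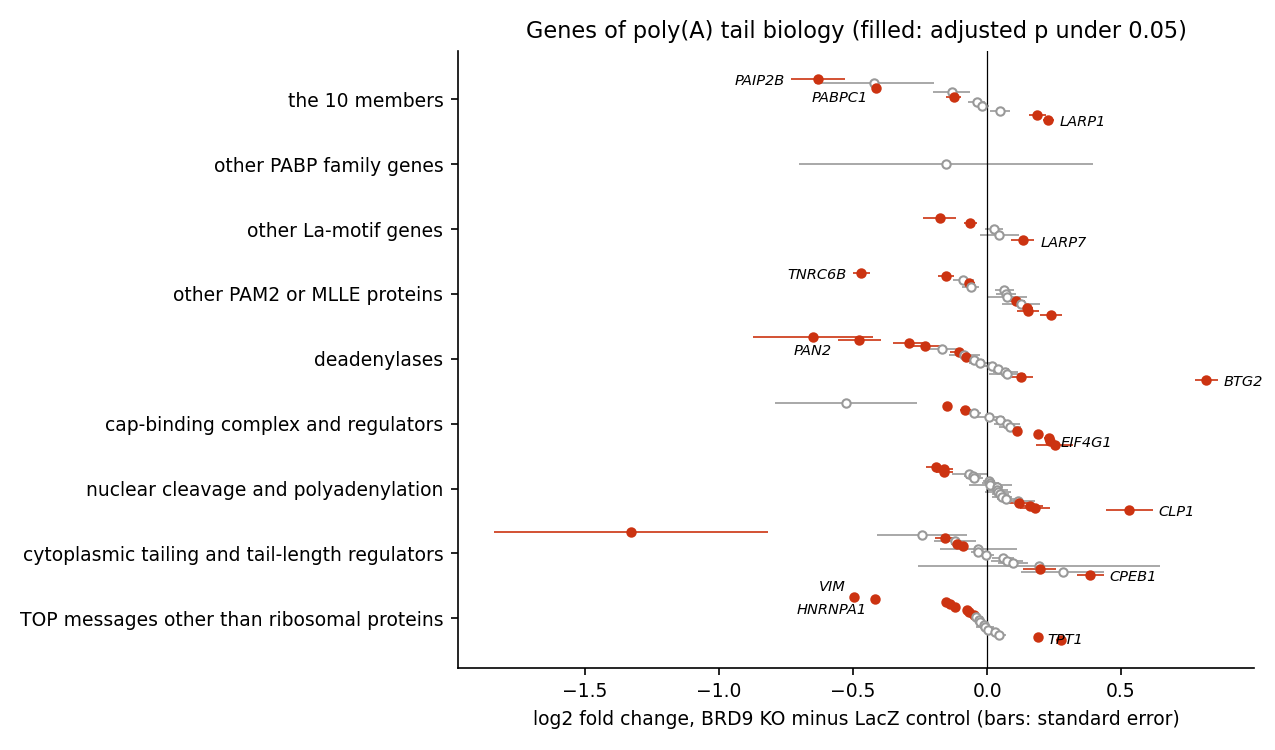
Log2 fold change (BRD9 KO minus LacZ control) with its standard error for the 10 members and for the tested genes of the 8 lists, filled where adjusted p was under 0.05. BTG2 lies farthest to the right at 0.82, and most lists hold filled points on both sides of 0.

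Among 5 other genes with a La motif, the fold of the LARP family, LARP7 was higher and LARP1B and SSB were lower. LARP7, which holds the 7SK RNA, was at 63.1 and 63.6 CPM against 56.5 and 59.0 in controls (log2 fold change 0.13, adjusted p = 0.0190). LARP1B, the paralog of LARP1, was at 33.5 and 33.2 CPM against 36.0 and 39.4 (log2 fold change -0.18, adjusted p = 0.0285). SSB, the La protein itself, was at 207 and 205 CPM against 218 and 213 (log2 fold change -0.063, adjusted p = 0.0486), and shares part of its locus with METTL5 on the opposite strand. These calls changed with the setting. LARP7 lost its call in 5 of 13 alternatives, LARP1B in 6 and SSB in 9, and all 3 calls were lost with DESeq2 and with limma. Adjusted p-values over all settings ran from 0.00656 to 0.170 for LARP7, from 0.0159 to 0.309 for LARP1B and from 0.0202 to 0.390 for SSB. Leaving out any 1 library left fewer of the 5 genes called, and the number called over all genes tested fell as well.

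Of 13 further proteins that carry the PAM2 peptide bound by PABPC1 or the MLLE domain that binds it, 4 were higher and 3 lower, with a median of 0.070. TNRC6B, a scaffold of microRNA silencing, fell from 186 and 177 CPM in controls to 134 and 127 (log2 fold change -0.47, adjusted p = 4.32e-10). GSPT1, the release factor eRF3a that ties termination to PABPC1, rose from 307 and 312 to 349 and 338 CPM (log2 fold change 0.15, adjusted p = 9.18e-06). TOB2, which brings the CCR4-NOT deadenylase to PABPC1, rose from 89.0 and 82.1 to 103 and 98.0 CPM (log2 fold change 0.24, adjusted p = 1.08e-04), but did not pass with limma (adjusted p = 0.130, range 7.77e-10 to 0.130). Without LacZ control replicate 2 fewer genes of this list were called, as was the case over all genes tested.

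Of 16 deadenylase subunits and cofactors, 2 were higher and 6 lower, with a median of -0.064. BTG2, an antiproliferative cofactor of CCR4-NOT and a p53 target, was at 90.4 and 85.6 CPM in BRD9 KO libraries and at 49.2 and 50.7 CPM in controls (log2 fold change 0.82, adjusted p = 9.41e-12). PAN2, the catalytic subunit of the deadenylase that PABPC1 activates, was at 16.7 and 16.0 CPM against 23.5 and 22.2 (log2 fold change -0.48, adjusted p = 8.64e-05). CNOT6L, a CCR4-type nuclease, was at 33.2 and 32.3 CPM against 40.5 and 39.8 (log2 fold change -0.29, adjusted p = 3.99e-04). PAN2 did not pass with limma on log2(TPM + 1) (adjusted p = 0.152, range 1.17e-06 to 0.152), and CNOT6L turned to 0.010 there (adjusted p = 0.955, range 4.39e-05 to 0.955). Leaving out any 1 library lowered the number of deadenylase genes called, as it did for all genes tested. With limma on log2(TPM + 1) the only call was 1 higher gene, and with DESeq2 1 was higher and 3 were lower.

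Of 13 tested cap-binding proteins and regulators, 5 were higher and 2 lower, with a median of 0.073. EIF4G1, the scaffold that PABPC1 binds, was at 481 CPM in each BRD9 KO library against 412 and 406 in controls (log2 fold change 0.24, adjusted p = 8.10e-10). EIF4G2, a related scaffold without the site for PABPC1, was at 1291 and 1292 CPM against 1124 and 1141 (log2 fold change 0.19, adjusted p = 4.17e-11), and overlaps CTR9 on the opposite strand. EIF4EBP2, an inhibitor of the cap-binding protein EIF4E, was at 413 and 417 CPM against 355 and 351 (log2 fold change 0.23, adjusted p = 3.02e-09). All 3 passed in each of the 13 alternatives.

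Of 20 nuclear cleavage and polyadenylation genes, 4 were higher and 3 lower, with a median of 0.036. CLP1, a kinase of the cleavage complex, was at 20.7 and 23.3 CPM against 15.0 and 15.3 (log2 fold change 0.53, adjusted p = 6.08e-05), and its exons overlap AP000662.4 on the same strand and YPEL4 on the other. CPSF3, the endonuclease, was at 73.4 and 71.8 CPM against 84.2 and 81.7 (log2 fold change -0.19, adjusted p = 5.60e-04). CPSF6, a cleavage factor subunit that guides the choice of poly(A) site, was at 130 and 134 CPM against 144 and 150 (log2 fold change -0.16, adjusted p = 3.78e-04), but did not pass with limma (adjusted p = 0.605, range 1.48e-05 to 0.605). Without LacZ control replicate 2 fewer of these genes were called, as was also so over all genes tested.

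Of 16 tested genes of cytoplasmic tailing and tail length, 2 were higher and 4 lower, with a median of -0.018, whereas the only call of limma on log2(TPM + 1) was 1 higher gene. CPEB1, which controls cytoplasmic polyadenylation, was at 55.6 and 54.0 CPM against 41.3 and 42.7 (log2 fold change 0.39, adjusted p = 3.71e-06), with other gene models overlapping it on both strands. The AU-rich element binders ZFP36L1 and ZFP36L2, which recruit deadenylases, were lower by small amounts, with log2 fold changes of -0.11 (adjusted p = 3.41e-04) and -0.089 (adjusted p = 5.27e-04). Neither passed with limma, at adjusted p = 0.0967 (range 3.66e-05 to 0.0967) for ZFP36L1 and 0.140 (range 5.50e-05 to 0.140) for ZFP36L2.

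PABPC1 was also set beside 18 other TOP messages that do not encode ribosomal proteins, of which 2 were higher and 8 lower, with a median of -0.035. With limma on log2(TPM + 1) 4 were higher and 6 lower. VIM was at 1269 and 1276 CPM in BRD9 KO libraries and at 1788 and 1797 CPM in controls (log2 fold change -0.49, adjusted p = 1.25e-18), and overlaps VIM-AS1 on the opposite strand. HNRNPA1, an RNA-binding splicing regulator, was at 1518 and 1507 CPM against 2002 and 2038 (log2 fold change -0.42, adjusted p = 2.68e-17). TPT1, the translationally controlled tumor protein, moved the other way, at 1430 and 1436 CPM against 1246 and 1267 (log2 fold change 0.19, adjusted p = 2.99e-11). The PABPC1 value of -0.42 lay near the low end of this list, whose range was -0.49 to 0.27. As its lower level was known when the members were chosen, that place is not a separate result. All 3 named genes passed in each of the 13 alternatives.

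The members' fold changes were recomputed under each alternative, and the plot of fold change by setting shows their spread. PABPC1 stayed between -0.42 and -0.40, LARP1 between 0.22 and 0.30 and PAIP2B between -0.73 and -0.48. PABPC3, with the fewest counts, ran from -0.64 to -0.16 and never passed the test. Leaving out any 1 library kept 5 members called each time, while the share of all genes called was 31.2% without BRD9 KO replicate 1, 30.7% without BRD9 KO replicate 2, 27.8% without LacZ control replicate 1 and 26.5% without LacZ control replicate 2. DESeq2 also called 5 members, beside 25.9% of its genes, and limma on log2(TPM + 1) called PABPC1 and LARP1, beside 16.0%. Each count of members called, here and in the closing section, includes PABPC1, whose lower level was known beforehand.

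**Figure D5:**
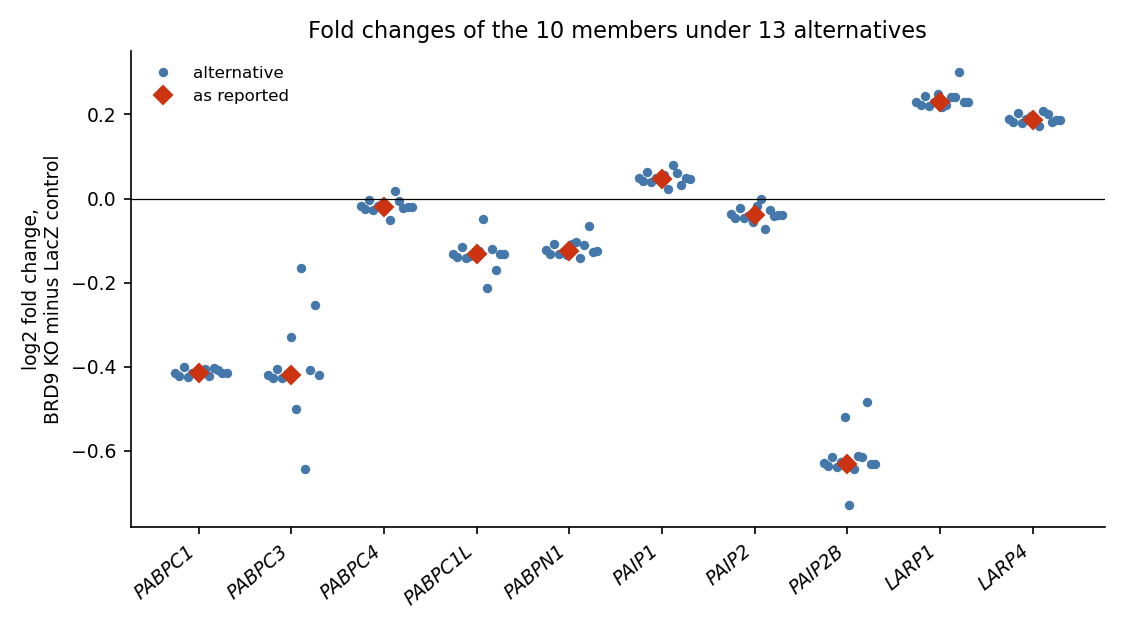
Log2 fold change (BRD9 KO minus LacZ control) of each member as reported (red diamond) and under 13 alternatives of test, scaling, filter, threshold, pooling or left-out library (blue points). PABPC3 spreads widest, from -0.64 to -0.16, and PABPC4 is the member with points on both sides of 0.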

How the data were processed

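Total RNA was made into libraries with the NEBNext Ultra kit, which does not mark strand, and sequenced on a NextSeq. Alignment by the authors was to hg19, using STAR, and RSEM gave the gene estimates (neither version is given in the sources used here). The deposited tables hold, per gene and library, an expected count, TPM, transcript lengths and a score, the posterior standard deviation of the count. No library was pooled.

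The 10 members and the 8 pathway lists were chosen with earlier results of these data known. Named pathway genes were the 3 with the smallest p-values among those called in each list, or the 2 most abundant tested where none was called. Expected counts were rounded, filtered with filterByExpr, scaled by TMM and tested with edgeR 4.0.16 (quasi-likelihood, robust, two-sided) in R 4.3.3 over 15288 genes, with Benjamini-Hochberg adjustment. A gene was called at adjusted p under 0.05. Standard errors were the log2 fold change divided by the square root of F. Ratios and levels used the deposited TPM. Depth was 15053247 to 19559290 counts per library. Replicates differed beyond sampling noise (chi-square per degree of freedom 1.59 and 1.62), so no library was a copy of another.

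Alternatives were DESeq2 1.42.0, limma 3.58.1 on log2(TPM + 1), other scalings and filters, the replicate block, each library left out, adjusted p under 0.01 and pooling of rows that share reads. Gene positions were taken from GENCODE on GRCh37 and promoters from RefSeq on GRCh38.p14. No row was matched to the endothelial marker PECAM1, which has no value and was not used here.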

Additional observations from a re-analysis of the deposited data

How the results depend on the processing

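The number of genes called over all genes, 5901, was 3573 with DESeq2 (2136 higher, 1437 lower) and 2444 with limma on log2(TPM + 1), and lay between 4195 and 4960 when 1 library was left out. The number of pathway genes called, 48, was 31 with DESeq2 (11 higher, 20 lower), 22 with limma (13 higher, 9 lower) and 37 to 39 with 1 library left out. The members called numbered 5 under every alternative except limma on log2(TPM + 1), which called 2, PABPC1 and LARP1, with PABPN1 at -0.065, PAIP2B at -0.48 and LARP4 at 0.18, and the cause was not tested. PABPC4 turned from -0.020 to 0.019 without LacZ control replicate 2, and the range over libraries left out was -0.050 to 0.019. BCL2L2-PABPN1 turned to 0.30 without BRD9 KO replicate 2 and to 0.042 without LacZ control replicate 1 (range -0.88 to 0.30 over libraries left out), and CNOT6L turned to 0.010 with limma. Among 285 alternative values of the 22 named pathway genes, 256 kept direction and side of the threshold, 25 lost the call, 1 gained it and 3 reversed, and 12 genes kept both in all 13 alternatives. Pooling rows that share reads gives no value of its own for PABPC3 or BCL2L2-PABPN1.

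Libraries with the same replicate number showed no positive correlation of their deviations from the group means (-0.054). As each group has 2 libraries, these deviations are mirror images, and the 0.054 for different numbers is the same value with its sign turned. With the replicate block, 6109 genes, 5 members and 50 pathway genes were called, against 5901, 5 and 48 without it. With 2 libraries per group, a left-out library leaves 1, which was assumed to vary like the other group. PABPC3 rested on at most 68 counts per library, and whether depth sets its call or the counts of 0 in the family was not tested.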
